A study of Mus musculus with 16 samples.

Results

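The genes described here are those of the proteasome and the immunoproteasome. They were chosen by name: every row of the count files whose symbol begins with Psm, a letter from a to g and a digit, which gave 50 of 24421 genes. By role they comprised 14 constitutive subunits of the 20S core (7 of the alpha ring and 7 of the beta ring), 3 immunoproteasome catalytic subunits, 17 subunits of the 19S cap (6 ATPases and 11 others), 3 genes of the PA28 activator, 3 other activators or inhibitors, 7 assembly chaperones, 2 subunits known from testis or thymus, and Psmc3ip, whose symbol fits the pattern but whose product is no proteasome subunit. Of these, 47 passed the filter on low counts and were among the 9642 genes tested. Psma8, Psmb11 and Psmc3ip did not, with at most 12, 2 and 29 counts in a library.

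The proteasome degrades proteins tagged with ubiquitin. Its 20S core is a barrel of outer alpha rings and inner beta rings, whose cutting sites lie on Psmb5, Psmb6 and Psmb7, and the 19S cap binds, unfolds and feeds in the substrate. Interferon-gamma induces Psmb8, Psmb9 and Psmb10, which replace Psmb5, Psmb6 and Psmb7 in newly built cores, together with Psme1 and Psme2, which form the PA28 cap, and this immunoproteasome is known in macrophages and other antigen-presenting cells for making peptides for MHC class I.

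The libraries were total RNA from CD11b+ cells sorted from MC38-Ova tumours (a mouse colorectal cancer line that carries ovalbumin) grown under the skin of female Kaede transgenic mice on a C57BL/6 background, sacrificed at 8 to 14 weeks of age. Light turned the Kaede protein of the host cells in the tumour from green to red, so that at harvest Kaede-green cells were newly-infiltrating and Kaede-red cells had been retained since labelling. There were 4 groups of 4 libraries: cells of each colour taken 24h or 72h after photoconversion. All libraries are labelled as controls, with no treatment given, they carry the same batch label, and the sort kept live CD45+ TER119- NK1.1- cells, so that CD11b+ cells of every kind were pooled and no unsorted or unlabelled control entered. The libraries of a group came from separate mice, and the sources used here do not say whether a Kaede-green and a Kaede-red library came from the same tumour.

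Total counts per library ran from 3216858 to 15423085. The ribosomal precursor Rn45s took 79.0 to 93.4% of them in Kaede-green and 55.8 to 84.9% in Kaede-red libraries, and Lars2 and Mir6236 together took 29.2 to 51.3% of the rest in Kaede-green and 3.05 to 27.8% in Kaede-red. This left 468092 to 912689 counts outside Rn45s in Kaede-green and 758192 to 5472477 in Kaede-red libraries, of which 1743 to 3695 and 4878 to 30114 fell on the 50 genes. The part of these differences in the results below was not tested beyond the alternatives named. Values are CPM, the count of a gene scaled to a common library size after TMM scaling, which sets the bulk of genes level between libraries, and log2 fold changes are therefore relative to the bulk of genes. Scaling to the library total alone, Rn45s included, moved the median log2 fold change of all genes to 2.20 for Kaede-red against Kaede-green, put all 47 tested members higher in Kaede-red, and so turned the sign of every fall between the colours reported here. Relative to that shifted median, 16 members lay above and 31 below. As a share of the counts outside Rn45s, Lars2 and Mir6236 the 50 genes took 0.618 to 0.791% in Kaede-green and 0.568 to 0.788% in Kaede-red libraries.

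The sorted cells carried the macrophage and monocyte markers (7 of 7 measured; summed level 905 to 2162 CPM in Kaede-green and 609 to 1420.3 CPM in Kaede-red libraries). Adgre1, Csf1r, Cd68 and Itgam were higher and Lyz2 was lower in Kaede-red over both times. Markers of several other cells were at or near 0: the T and NK cell list summed to at most 5.71 CPM in any library, the erythroid list to at most 5.79 CPM, the B cell list to at most 2.45 CPM and the tumour epithelial list to at most 3.67 CPM, and Krt18 and Krt19 were at 0 outside the Kaede-red 24h group, where they averaged 0.0322 and 0.0161 CPM. The fibroblast list summed to 40.3 to 52.6 CPM in Kaede-green and 11.1 to 35.8 CPM in Kaede-red libraries, with Col1a1, Col1a2 and Col3a1 lower in Kaede-red relative to the bulk of genes; by library total the 3 and Lyz2 had the opposite sign. The endothelial list summed to 9.75 to 18.96 CPM in Kaede-green and 17.7 to 36.6 CPM in Kaede-red libraries, and of its 3 genes Kdr and Pecam1 were called higher in Kaede-red over both times (1.06 and 1.02 on the log2 scale) and Cdh5 lower (-1.42, or 0.63 by library total). The neutrophil list summed to 8.58 to 12.2 CPM in Kaede-green and 9.05 to 22.3 CPM in Kaede-red libraries, with 2 of its 6 genes tested and 1, Csf3r, called higher (0.67). The dendritic cell list summed to 1.22 to 3.90 CPM in Kaede-green and 2.51 to 5.08 CPM in Kaede-red libraries, with 2 of its 6 genes tested and 1, Ccr7, called higher over both times; Ccr7 had no count in the Kaede-green 24h libraries and at most 4 in a Kaede-green 72h library. The part of these markers in the results was not tested. Fewer cells of a type and less RNA per cell cannot be told apart in these bulk samples.

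Upstream sequences are shown for 6 of the members described below, each with a window that holds at least 1 of the motifs searched and at most 27 bases of annotated exon. The window of Psmb6 also meets this rule and is not shown. The windows of Psmg4 and Psme2, also described below, held no match and are not shown. They are the 250 bases before the RefSeq transcription start on GRCm38.p6, 5′ to 3′, and the capitals mark matches, on either strand, to 6 motifs known from proteasome or interferon-responsive promoters: the CCAAT box (CCAAT), the NRF1 site (GCGCA, any base, then GCGC), the core bound by ETS factors (CCGGAAG), the antioxidant response element (TGACNNNGC), the gamma-activated site (TTCNNNGAA) and the core of the interferon-stimulated response element (GAAA, NN, then GAAA). NRF1 here stands for nuclear respiratory factor 1 and not for Nfe2l1, which is described further below. Psma3 and Psma6 are alpha ring genes, Psmb5 is the constitutive partner of Psmb8, Psmc4 is an ATPase, and Psmd14 and Psmd2 are other cap subunits.
Psma3, chr12:70974373-70974622, plus strand: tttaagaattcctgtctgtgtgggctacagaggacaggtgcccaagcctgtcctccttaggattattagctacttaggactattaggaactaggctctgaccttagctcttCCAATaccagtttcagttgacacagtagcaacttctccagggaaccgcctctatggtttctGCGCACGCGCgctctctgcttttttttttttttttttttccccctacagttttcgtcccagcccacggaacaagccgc
Psma6, chr12:55383972-55384221, plus strand: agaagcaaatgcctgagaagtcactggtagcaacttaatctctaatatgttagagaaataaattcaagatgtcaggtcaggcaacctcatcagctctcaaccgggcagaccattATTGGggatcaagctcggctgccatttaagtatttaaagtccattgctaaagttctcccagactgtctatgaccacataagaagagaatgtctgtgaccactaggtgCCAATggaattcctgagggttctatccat
Psmb5, chr14:54617996-54618245, minus strand: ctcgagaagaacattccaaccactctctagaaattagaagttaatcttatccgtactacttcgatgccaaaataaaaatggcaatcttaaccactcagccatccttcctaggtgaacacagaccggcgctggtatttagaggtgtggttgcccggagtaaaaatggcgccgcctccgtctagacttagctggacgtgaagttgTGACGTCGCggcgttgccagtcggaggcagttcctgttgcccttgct
Psmc4, chr7:28050093-28050342, minus strand: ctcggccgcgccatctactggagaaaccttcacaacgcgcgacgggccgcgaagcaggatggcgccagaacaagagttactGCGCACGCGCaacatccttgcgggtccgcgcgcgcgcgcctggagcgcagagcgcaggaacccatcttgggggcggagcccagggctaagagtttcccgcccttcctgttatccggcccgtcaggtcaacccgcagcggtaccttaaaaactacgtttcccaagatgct
Psmd14, chr2:61711444-61711693, plus strand: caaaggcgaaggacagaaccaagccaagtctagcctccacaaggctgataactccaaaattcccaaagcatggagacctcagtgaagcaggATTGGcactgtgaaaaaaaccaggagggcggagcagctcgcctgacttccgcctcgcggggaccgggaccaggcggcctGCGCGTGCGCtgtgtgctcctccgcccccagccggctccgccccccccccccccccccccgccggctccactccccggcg
Psmd2, chr16:20651402-20651651, plus strand: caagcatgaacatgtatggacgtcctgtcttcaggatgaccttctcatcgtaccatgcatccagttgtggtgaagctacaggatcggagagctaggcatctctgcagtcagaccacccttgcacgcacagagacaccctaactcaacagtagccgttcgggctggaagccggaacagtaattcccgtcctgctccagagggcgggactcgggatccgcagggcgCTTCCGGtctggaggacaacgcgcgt
The windows of Psmb6, Psmb5 and 3 other members held the antioxidant response element, which stood in 10.1% of the 27025 promoters of the table. Of the 42 members with a promoter there, 12 held the ETS core, against 7.05% of all promoters: 8 of 14 cap genes, among them Psmd2 shown above, and 0 of 11 constitutive core genes. The CCAAT box was in 15 of the 42, in 6 of 11 core genes and in 4 of 14 cap genes (34.5% of all promoters), and the NRF1 site was in 6, Psma2, Psma3, Psma4, Psmc4, Psmc5 and Psmd14 (3.86%). The gamma-activated site was found upstream of Psmb8 and Psmg1 (7.18%), and the interferon-stimulated core upstream of Psmb3, Psmd4 and Psmd9 (3.04%). A match describes the letters and is no evidence of binding, and no match says only that these letters are not in the window. The match of Psmb8 lies 97 to 89 bases before the RefSeq start, inside an exon of a longer annotated transcript, and is shown with 10 bases on each side (chr17:34198088-34198116, plus strand, GRCm38.p6).
Psmb8 site: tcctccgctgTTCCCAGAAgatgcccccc

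Relative to the bulk of genes, 5 of the 14 constitutive core genes fell in tumour-retained cells as compared with newly-infiltrating cells and none rose. Of the 17 cap genes 1 rose and none fell. The cap subunit Shfm1, which the name rule leaves out of the 17, was called lower over both times (-1.05 on the log2 scale). By library total the 5 and Shfm1 were higher. Over both times, 8 of the 47 members fell in Kaede-red cells and 1 rose (edgeR quasi-likelihood test, Benjamini-Hochberg adjusted p under 0.05), so that 19.1% of the members were called where 20.2% of all tested genes were, 10.3% of them lower and 9.96% higher. The share called was thus near that of all genes, and the split of the calls by direction was not tested. An unadjusted p under 0.05 was found for 17 members, where 32.6% of all genes had one. The members that fell were Psma3, Psma4, Psma5 and Psma7 of the alpha ring, Psmb1 of the beta ring, Psme2 and Psme2b of PA28, and the assembly chaperone Psmg4. The ATPase Psmc4 rose. By library total the 8 that fell were higher, as given above. The median log2 fold change was -0.37 over the 14 core genes, with 5 lower and 9 not called, and 0.24 over the 17 cap genes, with 1 higher and 16 not called, beside 0.06 over all genes tested. With the share of Rn45s in each library as a covariate 1 member was called over both times, Psme2b, and the core median was -0.31.

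**Figure D1:**
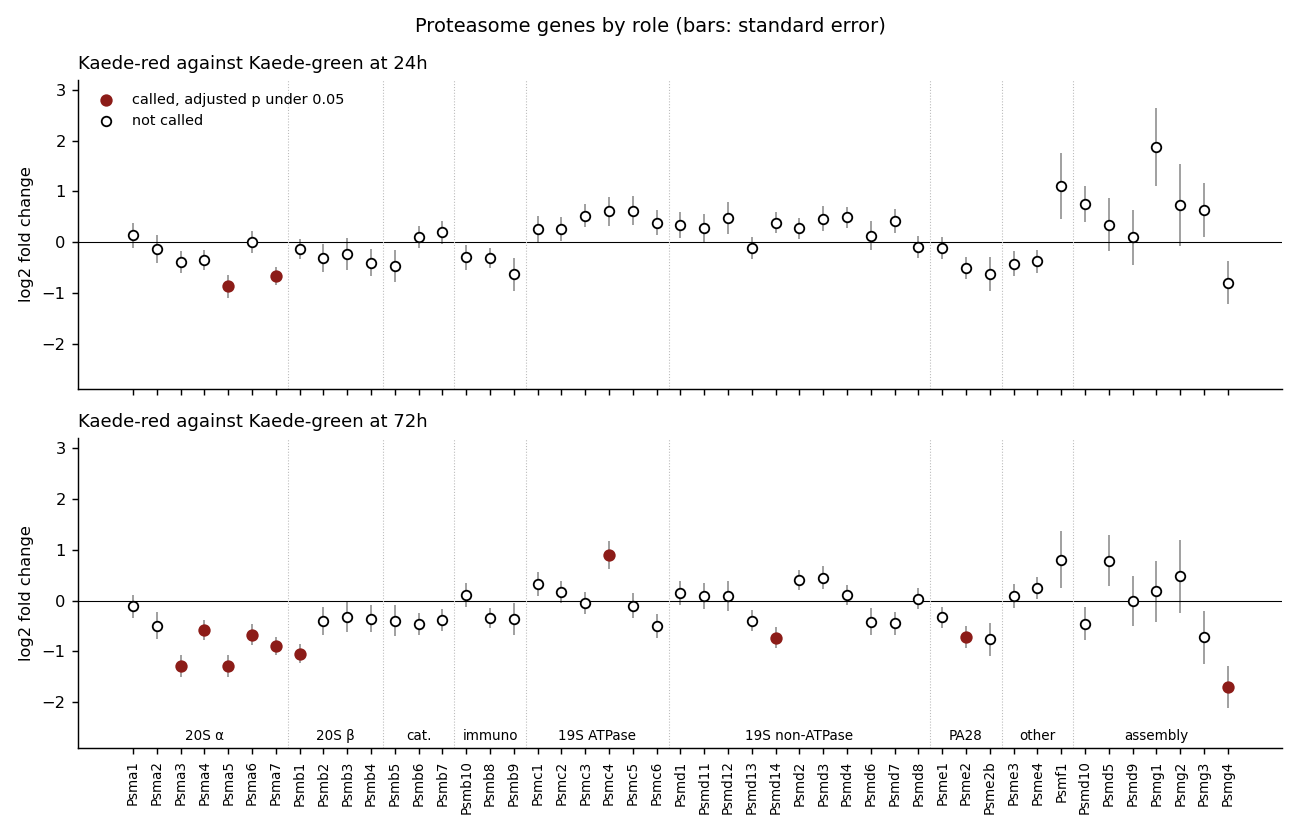
Log2 fold change of Kaede-red against Kaede-green cells (vertical axis, relative to the bulk of genes) for the 47 tested members, grouped by role, at 24h (top) and 72h (bottom). Filled points are called and bars are standard errors: 2 members, Psma5 and Psma7, are filled at 24h and 10 at 72h, 6 of these in the core, and under scaling to the library total alone the falls change sign.

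In the alpha ring, the outer ring that gates the core, Psma5 had the lowest log2 fold change over both times. It was at 41.8, 27.4, 39 and 26.9 CPM in the Kaede-green 24h libraries and at 17, 22, 17.2 and 17.6 CPM in the Kaede-red 24h libraries. At 72h it was at 25.1, 28.3, 30.1 and 26.7 CPM in Kaede-green and 9.17, 14.4, 14.3 and 7.75 CPM in Kaede-red libraries. No Kaede-red library reached a Kaede-green library, whether the times were pooled or not. The log2 fold change of Kaede-red against Kaede-green was -1.08 ± 0.16 (adjusted p = 3.71e-06) over both times, -0.87 ± 0.22 (adjusted p = 0.0108) at 24h and -1.29 ± 0.22 (adjusted p = 7.83e-05) at 72h. The gene lies at chr3:108256926-108279974, plus strand (GRCm38, GENCODE vM21), and 1700010K24Rik overlaps it on the other strand.

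Psma7 was the only other member whose Kaede-red and Kaede-green libraries did not overlap over both times, a pattern shown by 1.74% of all genes in that direction and by 1.19%, but no member, in the other. It was at 55.2, 47.8, 59.2 and 56.3 CPM in Kaede-green and 33.1, 34, 36.2 and 34.8 CPM in Kaede-red libraries at 24h. Its 72h levels were 47, 58.2, 39.9 and 44.1 CPM in Kaede-green and 21.9, 29.3, 28.2 and 22.1 CPM in Kaede-red libraries. Its log2 fold change was -0.78 ± 0.13 (adjusted p = 3.13e-05) over both times, -0.66 ± 0.18 (adjusted p = 0.0204) at 24h and -0.90 ± 0.18 (adjusted p = 0.000624) at 72h. The 24h call was lost when Kaede-green 24h replicate 3, Kaede-red 24h replicate 1 or Kaede-red 24h replicate 2 was left out (adjusted p up to 0.0578).

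Psma3 and Psma4 were called over both times and at 72h. Psma3 was at 35.7, 36, 58.2 and 50.2 CPM in Kaede-green and 33.2, 31.9, 42.9 and 30.1 CPM in Kaede-red libraries at 24h, where the groups overlapped. By 72h the values were 47, 62.1, 44.7 and 29.8 CPM in Kaede-green and 17, 21.2, 19.9 and 16.7 CPM in Kaede-red libraries. The 72h groups stood apart, with the highest Kaede-red library below the lowest Kaede-green library, and the log2 fold change was -0.40 ± 0.21 (adjusted p = 0.295) at 24h and -1.30 ± 0.21 (adjusted p = 5.79e-05) at 72h. Psma4 was at 40.1, 43.3, 61.5 and 54.3 CPM in Kaede-green and 42.7, 39.5, 37.1 and 38.2 CPM in Kaede-red libraries at 24h. It was at 58.3, 58.8, 40.4 and 35.8 CPM in Kaede-green and 28.5, 30.7, 39.7 and 29.7 CPM in Kaede-red libraries at 72h. The Psma4 groups overlapped at both times, and its 72h fold change of -0.59 ± 0.20 (adjusted p = 0.0364) lost its call when any of 5 libraries was left out (Kaede-green 72h replicates 1 and 2, Kaede-red 72h replicates 1, 2 and 4; adjusted p up to 0.117).

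Psma6 was called at 72h alone, without a test of the difference between times passing (-0.67 on the log2 scale, adjusted p = 0.283). Its levels at 24h were 26.2, 33.1, 36.5 and 18.4 CPM in Kaede-green libraries and 27.7, 25.6, 33.5 and 28.4 CPM in Kaede-red libraries. The 72h libraries held 23.3, 28.6, 34.5 and 25.7 CPM in Kaede-green and 16.5, 21.3, 19.9 and 13.3 CPM in Kaede-red libraries. The groups stood apart at 72h and overlapped at 24h, with log2 fold changes of -0.0014 ± 0.22 (adjusted p = 0.997) at 24h and -0.67 ± 0.21 (adjusted p = 0.0268) at 72h. Leaving out Kaede-green 72h replicate 3, Kaede-red 72h replicate 1 or Kaede-red 72h replicate 4 ended the 72h call (adjusted p up to 0.113). Psma1 and Psma2, the remaining alpha subunits, were not called, at 0.01 and -0.32 over both times.

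In the beta ring, Psmb1 was the only one of the 4 non-catalytic genes called. It was at 32.3, 35.1, 43.1 and 28.6 CPM in Kaede-green and 29.8, 31.9, 38.4 and 28 CPM in Kaede-red libraries at 24h. At 72h it was at 40.4, 45.1, 37.4 and 34.7 CPM in Kaede-green and 17.3, 22.3, 20.5 and 16.3 CPM in Kaede-red libraries. The groups overlapped at 24h, and at 72h no Kaede-red library reached the Kaede-green range. The log2 fold change was -0.13 ± 0.19 (adjusted p = 0.76) at 24h and -1.05 ± 0.19 (adjusted p = 0.000181) at 72h, and the change between times was -0.91 ± 0.27 (adjusted p = 0.0829), which did not pass; it passed with DESeq2 and with edgeR on genes that had 10 counts or more in each library. Psmb2, Psmb3 and Psmb4 were not called, with log2 fold changes over both times at -0.36, -0.29 and -0.38.

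**Figure D2:**
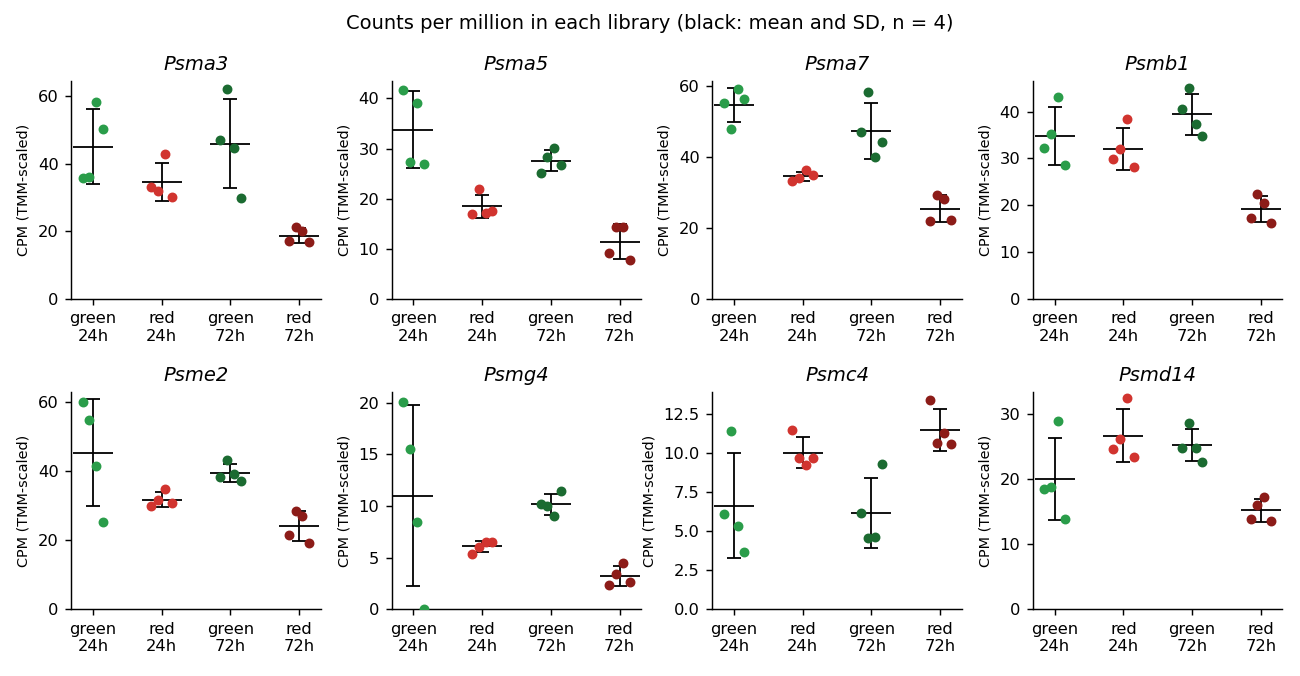
CPM after TMM scaling (vertical axes, from 0) of 8 called members in each of the 16 libraries, with the mean and SD of the 4 libraries of a group in black. Psma5 and Psma7 are lower in Kaede-red at both times, Psma3, Psmb1 and Psmd14 separate at 72h, and Psmc4 is higher in Kaede-red; the falls have the opposite sign under scaling to the library total alone.

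Of the 17 cap members 1 was called over both times. Psmc4, a base ATPase that helps unfold substrates, was at 6.13, 11.4, 5.36 and 3.67 CPM in Kaede-green and 11.5, 9.71, 9.23 and 9.67 CPM in Kaede-red libraries at 24h. Its 72h levels were 6.19, 4.57, 4.62 and 9.34 CPM in Kaede-green and 13.4, 10.6, 11.3 and 10.6 CPM in Kaede-red libraries. The groups overlapped at 24h through Kaede-green replicate 2, and at 72h every Kaede-red library was above every Kaede-green library. Its log2 fold change was 0.75 ± 0.20 (adjusted p = 0.00678) over both times and 0.89 ± 0.27 (adjusted p = 0.022) at 72h, and the 72h call was lost without Kaede-green 72h replicates 2 or 3 or Kaede-red 72h replicate 1 (adjusted p up to 0.101). The other 5 ATPases ranged from -0.06 (Psmc6) to 0.29 (Psmc1) and were not called. Among the 11 non-ATPase subunits, Psmd3 (0.46 ± 0.17, adjusted p = 0.0545) and Psmd2 (0.34 ± 0.14, adjusted p = 0.0909) came nearest to the threshold over both times, and among genes that had 10 counts or more in each library Psmd2, Psmd3 and Psmd4 were called higher.

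Psmd14, the deubiquitinase of the cap that removes ubiquitin chains before degradation, was the only one of the 17 cap members called lower in Kaede-red at 72h. It was at 18.4, 18.8, 28.8 and 13.9 CPM in Kaede-green and 24.6, 26.1, 32.4 and 23.3 CPM in Kaede-red libraries at 24h. By 72h the values were 24.8, 28.6, 24.8 and 22.6 CPM in Kaede-green and 13.9, 16, 17.2 and 13.6 CPM in Kaede-red libraries. The 24h groups overlapped, and at 72h all Kaede-red libraries were below all Kaede-green libraries. The log2 fold change was 0.38 ± 0.21 (adjusted p = 0.312) at 24h and -0.74 ± 0.21 (adjusted p = 0.0119) at 72h. The change of that difference with time, -1.12 ± 0.30 (adjusted p = 0.0615), did not pass; it passed with DESeq2, with the replicate number as a block, with the covariate for Rn45s, with edgeR on genes that had 10 counts or more in each library and without Kaede-green 24h replicate 3.

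The core and the cap were also set against each other as the summed counts of the 14 core genes over those of the 17 cap genes, a ratio taken within a library that does not depend on its scaling. It was 2.06, 1.67, 1.8 and 1.64 in the Kaede-green 24h libraries and 1.13, 1.13, 1.23 and 1.2 in the Kaede-red 24h libraries. It was 1.22, 1.53, 1.5 and 1.36 in the Kaede-green 72h libraries and 0.824, 0.954, 0.92 and 0.8 in the Kaede-red 72h libraries. The Kaede-red libraries lay below the Kaede-green libraries at each time, and within each colour the 72h libraries lay below the 24h libraries. This ratio is a description of the members and was not tested. It leaves out the cap subunit Shfm1, whose mean level in each group was above that of each of the 17 cap genes. Relative to the bulk of genes Shfm1 was lower in Kaede-red (-0.80 at 24h and -1.30 at 72h on the log2 scale). The ratio depends on that choice and was not computed with Shfm1. The core genes have shorter transcripts than the cap genes, with a median exon length of 1172.5 bases (766 to 3427) against 1989 bases (1316 to 3112) for the cap, and 3362 over all tested genes with a length. With offsets that level the relation of counts to exon length in each library, an alternative added after the data were seen, 5 members were called over both times (Psma3, Psma5, Psma7 and Psmb1 lower, Psmc4 higher), and the core and cap medians were -0.18 and 0.13.

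**Figure D3:**
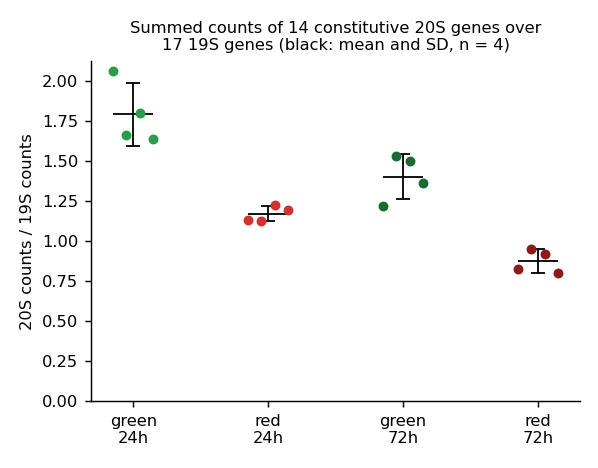
Summed counts of the 14 constitutive 20S genes divided by those of the 17 19S genes (vertical axis, from 0) in each of the 16 libraries, with the mean and SD of each group in black. The cap subunit Shfm1, outside the name rule, is not among the 17. The 4 Kaede-red 72h libraries lie lowest, between 0.800 and 0.954, and the 4 Kaede-green 24h libraries highest, between 1.64 and 2.06.

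The immunoproteasome catalytic subunits were measured well above the filter. With edgeR on all libraries after TMM scaling, none of the 3 was called in any of the 6 comparisons. By library total edgeR called all 3 higher in Kaede-red over both times. Without Kaede-green 24h replicate 4 it called Psmb8 and Psmb9 lower over both times. Over both times 2 of the 3 and 17 of the 47 members had an unadjusted p under 0.05, where 32.6% of all genes did. Psmb8 was called lower in Kaede-red over both times with DESeq2. Compared per length, in CPM per kb of exon, Psmb8 ranked second of the 50 members after Psme1, at 46.3 averaged over the libraries, and Psmb10 and Psmb9 ranked 10 and 14 at 14.7 and 12.9. Their constitutive partners Psmb6, Psmb7 and Psmb5 were at 29.6, 11.9 and 11.6 CPM per kb. In the order of levels within a group, the Psmb8 libraries of both 72h groups lay above those of each other catalytic subunit, Psmb8 overlapped Psmb6 in both 24h groups, and Psmb9, Psmb5 and Psmb7 overlapped in each group. Psmb10 overlapped these 3 as well, except that it lay above Psmb5 in the Kaede-red 72h libraries.

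Psmb8, at chr17:34197721-34201454, plus strand, next to Tap1 and Psmb9 in the MHC region, was at 112, 109.9, 72.5 and 64.9 CPM in Kaede-green and 78, 83.4, 71.9 and 54.9 CPM in Kaede-red libraries at 24h. The 72h libraries held 75.4, 86.8, 64.4 and 86.9 CPM in Kaede-green and 62, 68.2, 62.5 and 53.1 CPM in Kaede-red libraries. Kaede-green 24h replicates 1 and 2 were the highest of all 16 libraries, and the groups overlapped at both times. The log2 fold change was -0.33 ± 0.14 (adjusted p = 0.0962) over both times, -0.31 ± 0.20 (adjusted p = 0.396) at 24h and -0.35 ± 0.20 (adjusted p = 0.243) at 72h.

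Psmb9 lies on the other strand from Tap1 and overlaps it at chr17:34181987-34187764, minus strand, and it is not stated whether the counting used strand. It was at 39, 36.4, 16.3 and 5.71 CPM in Kaede-green and 15.4, 16.5, 15.9 and 13.5 CPM in Kaede-red libraries at 24h. At 72h it was at 10.6, 19.2, 15.1 and 23.1 CPM in Kaede-green and 15.8, 15.9, 10.4 and 10.9 CPM in Kaede-red libraries. The Kaede-green 24h group held both the highest and the lowest values, so the groups overlapped. The log2 fold change was -0.64 ± 0.32 (adjusted p = 0.257) at 24h and -0.36 ± 0.32 (adjusted p = 0.491) at 72h, and over both times it was -0.50 ± 0.23 (adjusted p = 0.119). Without Kaede-green 24h replicate 4, the library with the fewest counts outside Rn45s, Psmb9 was called over both times (-0.50 became -0.68, adjusted p = 0.00626), as well as at 24h (-0.98, adjusted p = 0.0165), and so was Psmb8 (-0.41, adjusted p = 0.0304).

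Psmb10 was at 30.6, 25.7, 18.9 and 11 CPM in Kaede-green and 18, 19.4, 17.4 and 14.6 CPM in Kaede-red libraries at 24h. Its 72h levels were 10.9, 20.4, 22.1 and 19.2 CPM in Kaede-green and 19.4, 23.4, 21 and 15.3 CPM in Kaede-red libraries. The groups overlapped at both times, and the log2 fold changes were -0.30 ± 0.25 (adjusted p = 0.545) and 0.11 ± 0.24 (adjusted p = 0.82).

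None of the constitutive partners was called between the colours after TMM scaling. Psmb5, the chymotrypsin-like subunit that Psmb8 replaces, was at 22.3, 19.6, 8.42 and 6.94 CPM in Kaede-green and 9.11, 10.2, 11.2 and 9.54 CPM in Kaede-red libraries at 24h. By 72h the values were 5.46, 11.6, 10.7 and 10.9 CPM in Kaede-green and 9.25, 6.87, 10.1 and 4.2 CPM in Kaede-red libraries. As for Psmb8, Psmb9 and Psmb10, replicates 1 and 2 of the Kaede-green 24h group were above replicates 3 and 4. Psmb6, replaced by Psmb9, was at 31.2, 36, 18.4 and 22 CPM in Kaede-green and 25.6, 25.4, 34.8 and 28.8 CPM in Kaede-red libraries at 24h. The 72h libraries held 14.9, 22.8, 28 and 23.9 CPM in Kaede-green and 16.3, 16.4, 19.6 and 13.5 CPM in Kaede-red libraries. Neither time separated the colours, but the Kaede-red 72h libraries were all below the Kaede-red 24h libraries. Psmb7, replaced by Psmb10, was at 13.9, 12.7, 15.3 and 9.79 CPM in Kaede-green and 16.5, 14.2, 13.6 and 15 CPM in Kaede-red libraries at 24h. At 72h it was at 17.5, 15.8, 18 and 11.4 CPM in Kaede-green and 13.7, 13.9, 9.36 and 10.7 CPM in Kaede-red libraries. These groups overlapped, and over both times the log2 fold changes of Psmb5, Psmb6 and Psmb7 were -0.43 ± 0.22 (adjusted p = 0.171), -0.18 ± 0.16 (adjusted p = 0.46) and -0.09 ± 0.16 (adjusted p = 0.725).

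**Figure D4:**
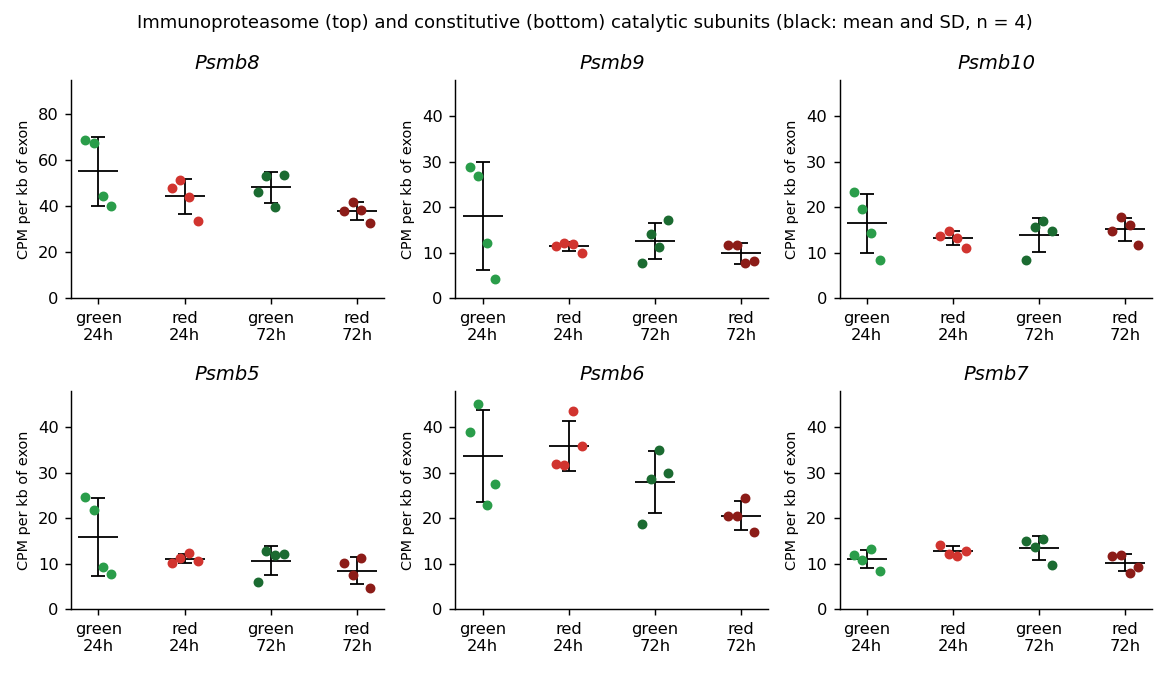
CPM per kb of exon (vertical axes, from 0; the axis of Psmb8 reaches higher than the others) of the immunoproteasome catalytic subunits (top) and the constitutive subunits they replace (bottom) in each library, with the mean and SD of 4 libraries in black. All groups overlap between the colours, and in the Kaede-green 24h group Psmb8, Psmb9, Psmb10 and Psmb5 are higher in 2 of the 4 libraries than in the other 2.

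Each immunoproteasome subunit was then set against its partner as a log2 ratio of CPM within a library, which asks whether the balance of their RNA differed. The make-up of assembled cores was not measured. The 3 pairs were compared in 5 comparisons, 15 tests in all, by exact two-sided permutation over libraries. The log2 ratio of Psmb8 to Psmb5 was 2.32, 2.48, 3.08 and 3.19 in Kaede-green and 3.07, 3.01, 2.66 and 2.50 in Kaede-red libraries at 24h. For the 72h groups it was 3.74, 2.89, 2.57 and 2.98 in Kaede-green and 2.72, 3.28, 2.61 and 3.61 in Kaede-red libraries. The colours overlapped, and the difference over both times was 0.03 (exact permutation p = 0.897, adjusted p = 1). The log2 ratio of Psmb9 to Psmb6 was 0.32, 0.02, -0.17 and -1.92 in Kaede-green and -0.72, -0.61, -1.12 and -1.08 in Kaede-red libraries at 24h. For the 72h groups it was -0.49, -0.25, -0.88 and -0.05 in Kaede-green and -0.05, -0.04, -0.90 and -0.31 in Kaede-red libraries. The difference over both times was -0.18 (exact permutation p = 0.56, adjusted p = 0.933), and Kaede-green 24h replicate 4 was the lowest library. The log2 ratio of Psmb10 to Psmb7 was 1.13, 1.01, 0.30 and 0.17 in Kaede-green and 0.12, 0.45, 0.35 and -0.04 in Kaede-red libraries at 24h. For the 72h groups it was -0.67, 0.36, 0.30 and 0.74 in Kaede-green and 0.49, 0.74, 1.15 and 0.51 in Kaede-red libraries. The difference over both times was 0.05 (exact permutation p = 0.832, adjusted p = 1). That value averages differences of opposite sign, -0.43 at 24h and 0.54 at 72h. Neither passed (exact permutation p = 0.229 and 0.171, adjusted p = 0.771 for both).

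Of the 15 tests, none passed after adjustment, and with 4 libraries against 4 the exact test cannot go below 0.0286 before adjustment, or 0.000408 over both times. The p of 0.0286 was reached once, by Psmb10 to Psmb7 in Kaede-red cells, where each 72h library was above each 24h library by 0.50 on average (exact permutation p = 0.0286, adjusted p = 0.429). A lone test of 4 libraries against 4 could thus not pass after adjustment even with fully separated groups. Such tests could pass only if many of the 15 had low p together, so their failure to pass says little. A p that misses the threshold does not show that the RNA balance was alike, and the SD of a ratio within a group reached 1.01.

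**Figure D5:**
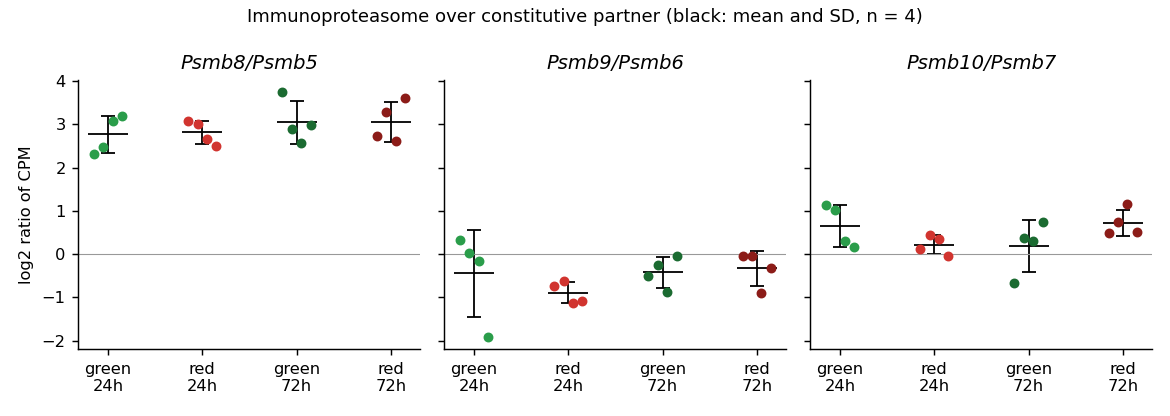
Log2 ratio of CPM of each immunoproteasome subunit to the constitutive subunit it replaces (vertical axis, shared) in each of the 16 libraries, with the mean and SD of each group in black. The colours overlap in all 3 pairs at both times, and the Psmb9 to Psmb6 ratio of 1 Kaede-green 24h library lies at -1.92, below the other 15.

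The PA28 genes were among the most abundant members. Psme1, the alpha subunit and the member with the highest level per kb, was at 68.5, 94, 63 and 44.9 CPM in Kaede-green and 71.6, 66.1, 53.8 and 56.5 CPM in Kaede-red libraries at 24h. Its 72h levels were 96.5, 111, 60.8 and 62.8 CPM in Kaede-green and 62.3, 63.7, 70.9 and 65.9 CPM in Kaede-red libraries. The colours overlapped, with a log2 fold change of -0.23 ± 0.15 (adjusted p = 0.314) over both times. Psme2, the beta subunit, was at 60.2, 54.8, 41.6 and 25.3 CPM in Kaede-green and 29.9, 31.7, 34.8 and 30.9 CPM in Kaede-red libraries at 24h. By 72h the values were 38.3, 43.3, 39.4 and 37.3 CPM in Kaede-green and 21.5, 28.4, 27 and 19.3 CPM in Kaede-red libraries. Its groups overlapped at 24h through Kaede-green 24h replicate 4, without which the 24h difference was called (-0.72, adjusted p = 0.0163), and stood apart at 72h, and the log2 fold change was -0.61 ± 0.15 (adjusted p = 0.00295) over both times, -0.51 ± 0.21 (adjusted p = 0.154) at 24h and -0.72 ± 0.21 (adjusted p = 0.015) at 72h. The 72h call was lost without Kaede-red 72h replicates 1 or 4 (adjusted p up to 0.0647), and with the length offsets Psme2 was not called.

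Psme2b is a near copy of Psme2 at chr11:48945354-48946190, minus strand, so reads of the pair may have been split or moved between them. It was at 8.36, 57.2, 16.6 and 19.995 CPM in Kaede-green and 21.4, 20.5, 13.9 and 10.4 CPM in Kaede-red libraries at 24h. The 72h libraries held 18.2, 23.1, 16 and 26.4 CPM in Kaede-green and 10.9, 15.6, 9.96 and 12.4 CPM in Kaede-red libraries. Kaede-green 24h replicate 2 was far above the others, and the call over both times (-0.70 ± 0.23, adjusted p = 0.0303) was lost without it (-0.35, adjusted p = 0.208) and without Kaede-red 24h replicates 3 or 4, Kaede-green 72h replicate 4 or Kaede-red 72h replicates 1 or 3. Of the other activators and inhibitors, Psme3, Psme4 and Psmf1 had log2 fold changes of -0.17, -0.06 and 0.96 and were not called.

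The assembly chaperones were low, 6 of 7 at no more than 2.90 CPM per kb on average, with Psmg4 at 13.7 CPM per kb. Psmg4, which pairs with Psmg3 to help build the alpha ring, was at 20.1, 15.5, 8.42 and 0 CPM in Kaede-green and 5.34, 6.07, 6.52 and 6.51 CPM in Kaede-red libraries at 24h. At 72h it was at 10.2, 10.1, 8.99 and 11.4 CPM in Kaede-green and 2.34, 3.45, 4.53 and 2.65 CPM in Kaede-red libraries. Kaede-green 24h replicate 4 had no count, so the 24h groups overlapped, while the 72h groups stood apart. The log2 fold change was -1.25 ± 0.29 (adjusted p = 0.0022) over both times and -1.70 ± 0.41 (adjusted p = 0.00341) at 72h, the lowest among the members in both comparisons, and with the length offsets neither was called. Psmg1, another alpha ring chaperone, had the highest log2 fold change over both times and at 24h (1.03 ± 0.49, adjusted p = 0.141 and 1.88 ± 0.77, adjusted p = 0.143) on at most 67 counts in a library and was not called.

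At 24h the colours differed in 2 members, Psma5 and Psma7, both lower, or 4.26% of the members, where 7.51% of all genes were called, 4.3% lower and 3.2% higher, and 9 members had an unadjusted p under 0.05, where 20.9% of all genes did. At 72h they differed in 10 members, 9 lower and 1 higher, or 21.3% of the members, where 16.8% of all genes were called, 8.76% lower and 8.07% higher, and 14 had an unadjusted p under 0.05, where 29.8% of all genes did. The 72h list was that of both times without Psme2b and with Psma6 and Psmd14. In 9 members the 72h groups stood apart with Kaede-red lower, where 9.52% of all genes did, and in 4 (Psmc1, Psmc4, Psmd2 and Psmd3) with Kaede-red higher, where 13% of all genes did. At 24h the groups stood apart in 2 members with Kaede-red lower (5.44% of all genes) and in 4, Psmc3, Psmc5, Psmd3 and Psmg1, with Kaede-red higher (7.07% of all genes). Without Kaede-red 72h replicate 1 the 72h count was 6, and without Kaede-green 24h replicate 4 it was 5 at 24h and 14 over both times, while it was 1 at 24h without Kaede-green 24h replicate 3 or Kaede-red 24h replicates 1 or 2. With the Rn45s share as a covariate, Psme2b was the only member called at either time.

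Time was compared within each colour. By the study's methods the tumours were photoconverted on the same day after injection, so the 72h tumours were also older. Time since labelling and tumour age cannot be told apart here. In Kaede-green cells no member was called between 72h and 24h with edgeR or DESeq2, and neither was any of the 9642 genes with edgeR; 1 member and 8.66% of all genes had an unadjusted p under 0.05. The 72h libraries stood apart from the 24h libraries in 1 member, higher, where 1.9% of all genes were higher in this way and 1.09% lower. In Kaede-red cells 7 members fell from 24h to 72h, or 14.9% of the members, where 8.67% of all genes were called, 3.76% of them lower: Psma3, Psma5 and Psma6 of the alpha ring, Psmb1 and Psmb6 of the beta ring, Psmd14 of the cap and the chaperone Psmg3. None rose, where 4.91% of all genes did, and 14 members had an unadjusted p under 0.05, where 23% of all genes did. The log2 fold changes were -0.88 ± 0.21 (adjusted p = 0.00871) for Psma3, -0.71 ± 0.21 (adjusted p = 0.0338) for Psma5 and -0.70 ± 0.21 (adjusted p = 0.0309) for Psma6. They were -0.74 ± 0.19 (adjusted p = 0.0116) for Psmb1, -0.80 ± 0.21 (adjusted p = 0.0172) for Psmb6 and -0.81 ± 0.20 (adjusted p = 0.0107) for Psmd14. The Kaede-red 72h libraries lay below the Kaede-red 24h libraries in 13 members, where 8.76% of all genes did, the 7 called members among them, and above them in 2, where 11.8% of all genes did. Psmg3 was at 2.28, 3.89, 2.72 and 1.93 CPM in Kaede-red 24h and 1.29, 1.06, 0.151 and 1.2 CPM in Kaede-red 72h libraries, a change of -1.40 ± 0.45 (adjusted p = 0.0484) on at most 57 counts in a library.

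Leaving out 1 library ended some or all of these calls, while the log2 fold changes stayed negative. None of the 7 was called without Kaede-red 24h replicate 3, where they were -0.61 (Psma6) to -1.38 (Psmg3) with adjusted p of 0.0562 to 0.127 (edgeR), and 1 was called without Kaede-red 72h replicate 1, 2 without Kaede-red 72h replicate 4 and 4 without Kaede-red 24h replicate 4. None was called with the Rn45s share as a covariate, at -0.63 (Psma6) to -1.62 (Psmg3), or by library total, at -0.31 (Psma6) to -0.98 (Psmg3). The median of the 14 core genes was -0.43 from 24h to 72h in Kaede-red cells and -0.13 in Kaede-green cells, and that of the 17 cap genes was 0.02 and 0.30. The highest and lowest members were Psmd2 (0.45) and Psmg3 in Kaede-red cells and Psmg1 (1.35) and Psmd5 (-0.53) in Kaede-green cells. The difference between the 2 times in the contrast of the colours was not called for any member with edgeR (0.767% of all genes were called, 0.436% higher and 0.332% lower, and 7 members had an unadjusted p under 0.05 where 15.3% of all genes did), while DESeq2, and edgeR on genes that had 10 counts or more in each library, called 3, Psma3, Psmb1 and Psmd14, all with a more negative difference at 72h. The highest value was that of Psme4 (0.63) and the lowest that of Psmg1 (-1.70).

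Genes that work with the proteasome were taken from a list of 23 measured assembly factors, cap partners and regulators. This list and that of interferon regulators below were chosen with earlier results of these data known. Their shares of calls are therefore descriptions and no test of the lists. Over both times 7 were higher in Kaede-red cells, 2 were lower and 14 were not called, so that 39.1% of the list was called where 20.2% of all genes were (9.96% higher and 10.3% lower). The 2 that fell were Pomp and Shfm1. Pomp, the chaperone that matures the core, averaged 32 ± 5.03 CPM in the Kaede-green 24h and 21.9 ± 2.27 CPM in the Kaede-red 24h libraries (mean ± SD, n = 4). At 72h it averaged 27.2 ± 1.85 and 16.2 ± 2.8 CPM, and its log2 fold change over both times was -0.65 ± 0.14 (adjusted p = 0.000622). Shfm1, the smallest cap subunit, now called Sem1 and not among the members by the name rule, averaged 99.6 ± 27.9 and 57.4 ± 5.5 CPM at 24h, then 87.1 ± 14.8 and 35.6 ± 8.8 CPM at 72h, and its log2 fold change was -1.05 ± 0.15 (adjusted p = 3.48e-06). By library total their log2 fold changes over both times were 1.46 and 1.12, with the opposite sign.

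The genes that rose included the polyubiquitin gene Ubb, by 0.42 ± 0.14 (adjusted p = 0.0312), and the activating enzyme Uba1, by 0.47 ± 0.15 (adjusted p = 0.0228). The segregase Vcp rose by 0.65 ± 0.16 (adjusted p = 0.00322) and the cap deubiquitinase Usp14 by 0.73 ± 0.26 (adjusted p = 0.0467). Ddi2, the protease that activates Nfe2l1, rose by 0.73 ± 0.20 (adjusted p = 0.00843), while Nfe2l1 itself, which drives proteasome genes when the proteasome is short, was at 12.8 ± 4.79, 14.3 ± 2.89, 13.7 ± 1.49 and 14.5 ± 1.93 CPM in Kaede-green 24h, Kaede-red 24h, Kaede-green 72h and Kaede-red 72h libraries and was not called (0.12, adjusted p = 0.669). Ubqln1, a shuttle factor, was called higher in Kaede-red at 72h (0.95 ± 0.27, adjusted p = 0.014) and not over both times, and Txnl1, a cap-associated thioredoxin-like protein, fell from 24h to 72h in Kaede-red cells (-0.79 ± 0.24, adjusted p = 0.0339).

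Of the 19 measured interferon regulators and class I peptide-loading genes, 3 were higher in Kaede-red over both times, none was lower and 16 were not called, or 15.8% called beside the same 20.2% of all genes. The 3 were the class I heavy chain H2-K1 (0.92 ± 0.14, adjusted p = 6.94e-06), its light chain B2m (0.54 ± 0.15, adjusted p = 0.00825) and the kinase Jak1 (0.51 ± 0.14, adjusted p = 0.00971). Tap1, the peptide transporter whose gene adjoins Psmb9, was not called (0.29 ± 0.15, adjusted p = 0.173). Irf1, which drives Psmb8 and Psmb9, rose from 24h to 72h in Kaede-red cells (0.62 ± 0.18, adjusted p = 0.0274) with no call between the colours (-0.15 over both times). Nlrc5, the class I transactivator, was lower in Kaede-red at 24h (-0.65 ± 0.21, adjusted p = 0.0486), or at 1.63 by library total, and had a log2 fold change of 0.15 at 72h. Tapbp was higher in Kaede-red at 72h (0.65 ± 0.19, adjusted p = 0.014).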

How the data were processed

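Total RNA of CD11b+ cells was made into libraries with a stranded pico-input kit and sequenced in pairs. According to the labels and the study's methods, the authors used Trim Galore (reads trimmed), HISAT2 (alignment, genome mm10) and featureCounts (reads per gene). Versions and the strand setting are not given in the sources used here. The deposited values are raw counts for 24421 gene symbols, with no normalization, and the combined table, which holds the same values, was not used. All rows name a gene.

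Genes kept by filterByExpr (9642) were fitted in a single model of 4 group means over 16 libraries with edgeR 4.0.16 (TMM, quasi-likelihood test, R 4.3.3), with Benjamini-Hochberg adjustment over all genes and calls at 0.05. The test was checked on simulated counts that had the same mean composition in all groups apart from a small set of changed genes. This did not check the scaling between the colours. DESeq2 1.42.0, other scalings, filters, a replicate block, an Rn45s covariate, thinned Kaede-red libraries and libraries left out were alternatives. Log2 CPM for ratios used a prior count of 2, and levels per kb used exon lengths of GENCODE vM21. Promoters were from RefSeq (GRCm38.p6; 42 of 50 members matched, the first entry of each). Members named were 8 fixed catalytic and PA28 genes, each called member, the highest and lowest of each comparison and, from the partner lists, called genes and a few fixed genes; other members are named, after their values were seen, to complete their group. Some genes of the partner lists are not reported here. Members and lists were chosen with earlier results of these data known. Values rest on 1743 to 30114 counts on the members per library.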

Additional observations from a re-analysis of the deposited data

Results flagged for a closer look

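In 104 sets of 4 libraries (the named members and 3 ratios in each of 4 groups), 4 held a library far from the other 3 by Dixon's test at the 95% level, which chance alone gives in about 1 set in 20. Psma5 was at 22 CPM in Kaede-red 24h replicate 2, against 17 to 17.6 CPM in the other 3 libraries, and the group stayed below all Kaede-green libraries. Psmb5 was at 5.46 CPM in Kaede-green 72h replicate 1, against 10.7 to 11.6 CPM. Psmd5, a chaperone of the cap, was at 5.31 CPM in Kaede-green 24h replicate 2, against 1.28 to 1.67 CPM, and at 4.41 CPM in Kaede-green 72h replicate 4, against 0.364 to 0.914 CPM.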

How the results depend on the processing

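Between the colours, scaling to the library total called 47, 47 and 42 members (over both times, at 24h, at 72h) and 0 between times in Kaede-red cells, and the log2 fold changes that turned positive were over both times 1.35 (Psma3), 1.73 (Psma4), 1.06 (Psma5), 1.37 (Psma7), 1.60 (Psmb5), 1.87 (Psmb6), 2.09 (Psmb7), 1.55 (Psmb1), 1.96 (Psme1), 1.49 (Psme2), 1.40 (Psme2b), 0.82 (Psmg4), 2.02 (Psmb10), 1.80 (Psmb8) and 1.56 (Psmb9); at 24h 1.49 (Psma5), 1.64 (Psma7), 1.74 (Psmb5), 2.17 (Psme1), 1.75 (Psme2), 2.01 (Psmb10), 2.02 (Psmb8) and 1.60 (Psmb9); at 72h 1.26 (Psmd14), 0.79 (Psma3), 1.46 (Psma4), 0.63 (Psma5), 1.27 (Psma6), 1.09 (Psma7), 1.46 (Psmb5), 1.44 (Psmb6), 1.67 (Psmb7), 0.95 (Psmb1), 1.75 (Psme1), 1.24 (Psme2), 0.24 (Psmg4), 1.58 (Psmb8) and 1.53 (Psmb9). The Rn45s share as a covariate left 1, 1 and 1 call between the colours and 0 between times in Kaede-red cells. It gave 1 call, Psmd14, for the difference between times. That share separated the colours at each time, and the cause of the lost calls was not tested. Offsets for gene length, an alternative chosen after seeing the data, gave 5, 2, 6 and 3 calls in the same order, and changed sign over both times 0.22 (Psmb6), 0.0791 (Psmb7) and 0.0202 (Psmb10), at 72h 0.0979 (Psmb5), 0.12 (Psmb6) and 0.0126 (Psme1). With no filter there were 1 call at 24h, 6 at 72h and 3 in Kaede-red cells, with sign changes over both times 0.0275 (Psmb7) and 0.0232 (Psmb10), and with at least 10 counts in all libraries there were 5 at 24h and 3 for the difference between times, with a sign change at 24h 0.0303 (Psme1). Fitting only the groups compared gave 11 calls between times in Kaede-red cells, Kaede-red libraries thinned to fewer counts gave 4, and DESeq2 gave 3 calls for the difference between times. The remaining sign changes were at 72h -0.116 (Psmb10) with the Rn45s covariate, at 24h -0.00429 (Psmb8/Psmb5) on thinned libraries and at 72h -0.00169 (Psmb8/Psmb5) with a prior count of 5.

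Leaving out 1 library gave 8 to 14 calls over both times, 1 to 5 at 24h, 6 to 11 at 72h, 0 to 0 between times in Kaede-green cells, 0 to 10 in Kaede-red cells and 0 to 1 for the difference between times. Uncalled values that changed sign in these fits were Psmb6 at 24h -0.0763 to 0.267, Psme1 at 24h -0.288 to 0.0643, Psmb10 at 72h -0.0807 to 0.216, Psmb8/Psmb5 over both times -0.0654 to 0.143, Psmb8/Psmb5 at 24h -0.104 to 0.187, Psmb8/Psmb5 at 72h -0.175 to 0.242, Psmb9/Psmb6 at 72h -0.0623 to 0.285, Psmb9/Psmb6 between times in Kaede-green -0.474 to 0.271, Psmb10/Psmb7 over both times -0.0871 to 0.148. Whether the replicate numbers pair the libraries is not stated, and correlations of deviations from the group means cannot settle it. Between same-numbered libraries they were 0.0493 to 0.153 at 24h and -0.0183 to 0.0287 at 72h. Between different-numbered libraries they were -0.132 to 0.147 at 24h and -0.0556 to 0.0595 at 72h. With the replicate number as a block the same 9, 2 and 10 members were called between the colours, 7 between times in Kaede-red cells (6 shared) and 1, Psmd14, for the difference between times, also 1 with the block nested in time. Depth limits the Kaede-green libraries most, with 1743 to 3695 counts on the members.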
